A study of Mus musculus with 36 samples.

Results

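HP1α loss was examined by ATAC-seq, which maps DNA open to the Tn5 transposase, in conventional CD4 T cells (Tconv) that had responded to an allograft in the absence of regulatory T cells (Treg). The comparison held the 6 libraries whose labels name Tconv and the HP1a genotype but not Treg, 3 WT and 3 KO, of 36 libraries in the series, and all 71509 peaks that passed the filter on low counts. Hosts (CD45.1+ B6 mice or C57BL/6 J) were lethally irradiated and received marrow of B6D2F1 and of C57BL/6 J mice together with naive CD4 T cells that were Hp1a+/+ (WT) or Hp1a-/- (KO). After 3 weeks, the transferred Tconv that carried TCR Vβ6, a chain reactive to a superantigen of the B6D2F1 marrow donor, were sorted from the spleen. The deletion came from a floxed Hp1a allele and a CMV-cre deleter, so it was present in every tissue and not only in T cells. Naive CD4 T cells of this line, Tconv of this line transferred with Treg, and Tconv of an HP1γ line (WT and Hp1g-/-) are given beside it, each with 3 WT and 3 KO libraries. In the HP1γ line the floxed Hp1g allele was removed by Cd4-cre, which acts in T cells, so the 2 lines also differ in where the gene was deleted. Mice were littermates on a mixed strain background, 6 to 12 weeks old and matched for sex. The Tconv of both groups were exposed to the same allogeneic marrow. Whether the 3 libraries of a group came from separate recipients was not stated, so the p-values describe the spread between these libraries.

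HP1α, encoded by Cbx5, is a chromodomain protein that binds histone H3 trimethylated at lysine 9 and takes part in the compaction of heterochromatin. In CD4 T cells this mark is deposited by enzymes that include SETDB1 and SUV39H1. It is known for silencing genes of other T helper lineages as well as repeated sequences. HP1β and HP1γ, the products of Cbx1 and Cbx3, bind the same mark.

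A single peak was called in the comparison, the CpG-rich promoter of the noncoding gene 1700030C10Rik on proximal chromosome 12, which was higher in KO Tconv. The peak with the next smallest p was the promoter of Gm49700, also a long noncoding RNA gene of chromosome 12. Both belong to a group of promoters that resemble each other in sequence and that are repeated along this stretch. Whether strain background at this stretch differed between WT and KO mice cannot be told apart from genotype with these files. No peak of a T helper cytokine, lineage factor or inhibitory receptor was called.

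The sequences of the leading promoters are shown to set the called peak beside 2 similar promoters, one that ranked next by p and one that was open in both genotypes (GRCm39, 300 bases each, with each CG dinucleotide in capitals). The Gm49700 stretch is the centre of its peak, chr12:20664916-20665215, plus strand. The stretches of 1700030C10Rik (chr12:20865560-20865859, minus strand) and of Gm48398 (chr12:18659998-18660297, plus strand), a relative whose accessibility was high in both genotypes, are those that align to it.

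Gm49700: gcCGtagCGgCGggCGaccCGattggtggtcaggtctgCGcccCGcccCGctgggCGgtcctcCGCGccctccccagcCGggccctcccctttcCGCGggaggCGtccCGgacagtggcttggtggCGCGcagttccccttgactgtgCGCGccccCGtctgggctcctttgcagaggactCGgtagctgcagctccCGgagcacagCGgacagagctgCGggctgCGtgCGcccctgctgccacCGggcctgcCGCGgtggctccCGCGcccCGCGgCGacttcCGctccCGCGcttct

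1700030C10Rik: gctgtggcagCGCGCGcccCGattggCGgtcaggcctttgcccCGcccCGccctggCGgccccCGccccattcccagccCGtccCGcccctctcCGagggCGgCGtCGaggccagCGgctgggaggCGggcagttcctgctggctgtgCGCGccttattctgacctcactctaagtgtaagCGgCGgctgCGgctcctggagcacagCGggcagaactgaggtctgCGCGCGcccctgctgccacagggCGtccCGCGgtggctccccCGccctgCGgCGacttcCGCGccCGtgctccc

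Gm48398: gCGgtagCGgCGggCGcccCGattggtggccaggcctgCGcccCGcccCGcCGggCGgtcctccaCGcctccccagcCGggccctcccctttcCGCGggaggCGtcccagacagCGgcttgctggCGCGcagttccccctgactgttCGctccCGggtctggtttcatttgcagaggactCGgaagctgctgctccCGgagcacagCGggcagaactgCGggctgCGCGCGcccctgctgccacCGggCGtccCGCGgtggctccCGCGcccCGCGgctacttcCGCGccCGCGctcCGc

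The 1700030C10Rik stretch was 79.0% identical to that of Gm49700 over 290 aligned bases, and the Gm48398 stretch was 90.9% identical over 297. These stretches held 35 to 40 CG dinucleotides, against a median of 4 in the central 300 bases of all peaks, and at most 3.57% of all peaks held as many as 35. The letters GGGCGG, the core bound by SP and KLF factors, occurred on either strand 2 times in the Gm49700 stretch, 5 times in that of 1700030C10Rik and 2 times in that of Gm48398, and were present in 16.5% of all peak centres. The letters CCAAT, the CCAAT box, occurred in all 3 and in 29.1% of all peak centres. Neither TGANTCA, the core of the AP-1 site, nor TGTGGT, that of the RUNX site, was found in these stretches on either strand, whereas they were present in 13.0% and 30.0% of peak centres.

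1700030C10Rik (ENSMUSG00000099759) is a long noncoding RNA gene, and its peak lies over the start site at chr12:20864981-20866290. In CPM, raw counts scaled to the library's reads in peaks, it stood at 1.26, 4.06 and 8.54 in WT replicates 1 to 3 and at 41.0, 32.1 and 24.1 in KO replicates 1 to 3. Every KO library was above every WT library. The log2 fold change was 3.20 ± 0.43 (SE, n = 3 against 3, 95% interval 2.31 to 4.1; edgeR quasi-likelihood test, adjusted p = 0.0488). Within WT, the value was lowest in the deepest library and highest in the shallowest one. The log2 fold change was 3.82 with log2 depth as a covariate (adjusted p = 0.0161) and 2.78 after thinning to the smallest library (adjusted p = 0.105, edgeR). The direction was the same in 24 of 24 alternative fits, but the call was lost in 11 of them, including the fit of the 6 Tconv libraries alone (adjusted p = 0.410) and the fits without WT replicate 2 (adjusted p = 0.577), without KO replicate 1 (0.169) and without KO replicate 2 (0.118). Without WT replicate 3 the log2 fold change was 3.83 (adjusted p = 0.00349) and without WT replicate 1 it was 2.65 (0.0114, edgeR).

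Called peaks made up 0.0014% of the 71509 tested, and 2202 peaks, 3.08%, had an unadjusted p under 0.05. KO and WT libraries did not overlap at 6.65% of peaks, with KO above WT at 2.29% and below at 4.36%. With so few calls, the peaks that follow are given by their values, and none of them passed the adjusted threshold in this fit. For those among the 8 with the smallest p, the number of alternative fits that passed it is given with each.

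Gm49700 (chr12:20664591-20665540, over its start site) stood at 2.00, 2.39 and 2.90 CPM in WT replicates 1 to 3 and at 10.04, 8.78 and 6.77 in KO. The WT libraries lay closer together here, and all KO libraries were above them. As at 1700030C10Rik, WT values were higher and KO values lower in the shallower libraries. At Gm49700 the log2 fold change was 1.95 ± 0.28 (95% interval 1.35 to 2.54) with an adjusted p of 0.0852 by edgeR's quasi-likelihood test, and it was past the threshold in 7 of 24 alternative fits.

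**Figure D1:**
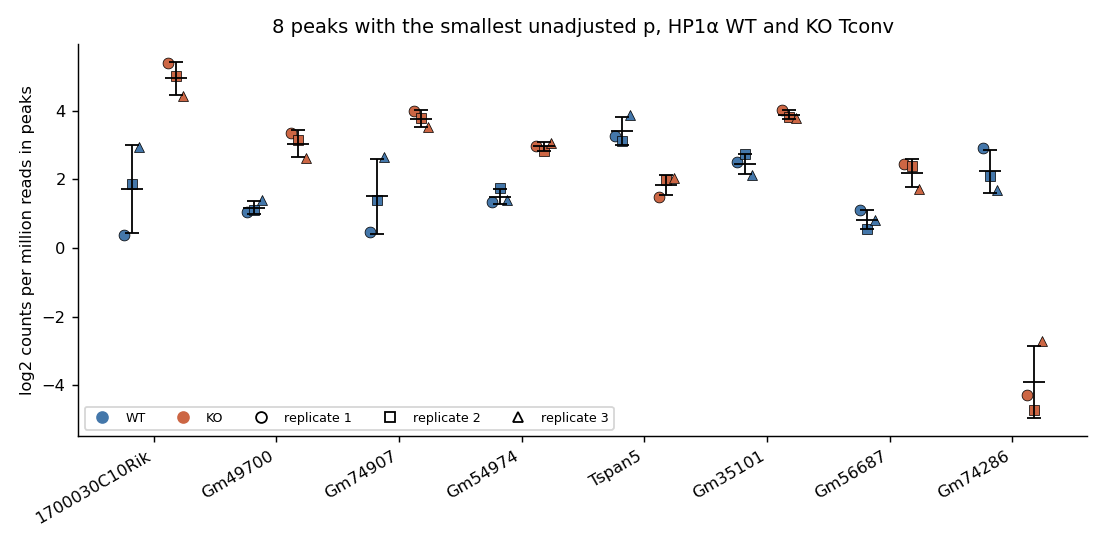
Log2 CPM for the 8 peaks with the smallest unadjusted p, in the 3 WT (blue) and 3 KO (orange) libraries, with symbols for replicates and bars for mean ± SD. The libraries of the 2 genotypes do not overlap at any of the 8 peaks, which were ranked on these values, and the WT libraries spread most at 1700030C10Rik and Gm74907.

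The promoter family on chromosome 12 was collected by sequence alone, as the tested peaks that matched the 1700030C10Rik or the Gm49700 peak over at least 200 bases at 80% identity or more. It had 15 members, all on chromosome 12 between 17931111 and 24302790, all within 1 kb of an annotated start site, with 59.5% to 74.8% GC. Identity to the Gm49700 peak ran from 83.4% to 97.8%. The authors filtered reads on mapping quality, and how many reads of each member this removed was not tested.

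Summed over the 15 members, the family took 122, 123 and 154 CPM in WT Tconv replicates 1 to 3 and 227, 196 and 179 in KO Tconv. Among the 15, 6 were higher in KO at an unadjusted p under 0.05 and 0 were lower, where 0.856% and 2.22% of all peaks were. KO lay above WT without overlap at 5 and below at 0, beside 2.29% and 4.36% of all peaks. Since 1700030C10Rik and Gm49700, the first 2 peaks by p, chose the family, their own values are part of these totals and counts. Of the other 13 members, 4 were higher, 0 were lower and 3 had no overlap, each of these with KO above WT. The median log2 fold change of these 13 was 0.30, from -0.39 to 2.31, beside a median of -0.05 over all peaks.

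Members differed in how open they were in WT. Gm48398 was open in both genotypes, at 27.3, 23.0 and 28.1 CPM in WT replicates 1 to 3 and 32.6, 32.5 and 25.8 in KO, a log2 fold change of 0.29 ± 0.21 (unadjusted p = 0.185). The 2 members nearest Asap2, a coding gene for a GTPase-activating protein, had log2 fold changes of 0.60 and 0.30, with unadjusted p of 0.0680 and 0.0934. Gm49957 (chr12:19337991-19339370) stood at 1.01, 4.92 and 6.77 in WT and 17.5, 8.65 and 10.8 in KO, a log2 fold change of 1.81 ± 0.50 (unadjusted p = 0.00205). The 9030624G23Rik promoter (chr12:24146831-24147560) stood at 0.215, 0.457 and 0.967 in WT and 1.28, 1.70 and 3.34 in KO, a log2 fold change of 2.31 ± 0.79 (unadjusted p = 0.00919). Each KO library was above each WT library at both of these promoters. At 5730507C01Rik the values were 0.618, 3.05 and 7.90 in WT and 3.22, 1.62 and 4.15 in KO, so the groups overlapped and the log2 fold change was -0.12 (95% interval -1.37 to 1.13).

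**Figure D2:**
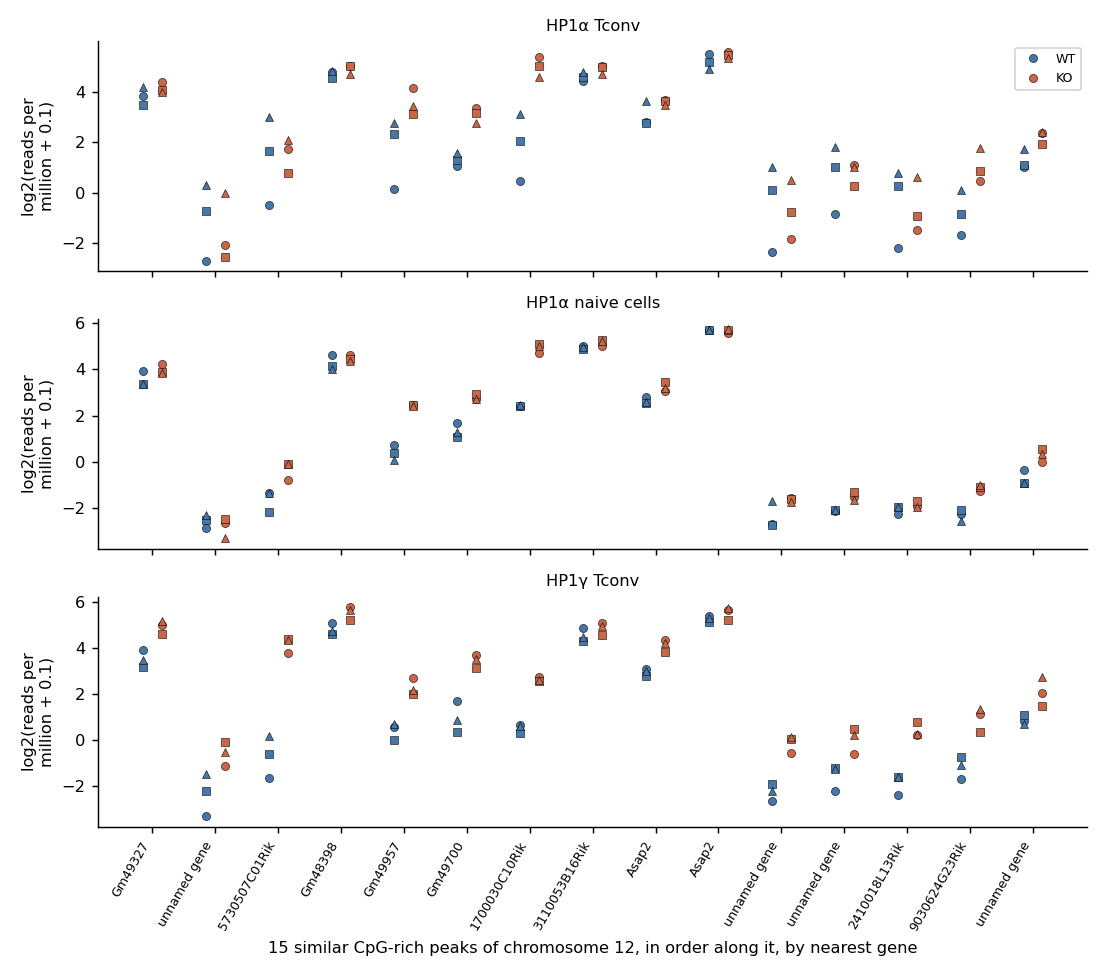
CPM, as log2 after adding 0.1, at the 15 similar promoters of chromosome 12 in their order along the chromosome, for WT (blue) and KO (orange) libraries, with symbols for replicates 1 to 3 (circle, square, triangle). The rows show HP1α Tconv, HP1α naive cells and HP1γ Tconv. KO libraries lie above WT libraries at 1700030C10Rik, Gm49700 and Gm49957 in all rows.

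The same promoters were also read in naive cells, whose libraries entered the Tconv fit through the shared estimate of spread, and in the HP1γ line, which did not enter it. In naive CD4 T cells of the same mouse line, 1700030C10Rik stood at 5.19, 5.18 and 5.42 CPM in WT and 26.2, 34.1 and 32.6 in KO, a log2 fold change of 2.54 ± 0.38 (unadjusted p = 3.55e-06, adjusted p = 0.127 by edgeR). Of the 15 members, 6 were higher and 0 lower in naive KO cells at an unadjusted p under 0.05, where 0.227% and 0.42% of all peaks were. The KO effect differed between Tconv and naive cells at an unadjusted p under 0.05 at 1.06% of peaks, and at 1700030C10Rik the difference was 0.67 ± 0.55 on the log2 scale (unadjusted p = 0.239). In Tconv of the HP1γ line, 8 members were called higher in KO and 0 lower, against 1.24% and 0.565% of all peaks. There 1700030C10Rik stood at 1.47, 1.14 and 1.40 in WT and 6.58, 5.80 and 5.97 in KO, a log2 fold change of 2.13 ± 0.31 (adjusted p = 0.00143), and Gm49700 at 3.15, 1.16 and 1.71 in WT and 12.9, 8.59 and 11.4 in KO, a log2 fold change of 2.39 ± 0.28 (adjusted p = 0.000251). The family total was 101 to 136 CPM in the WT Tconv of that line and 182 to 242 in its KO Tconv. In Tconv with Treg of the HP1α line, where the fit held 2 WT libraries and 1 KO library, 2 members were higher and 0 lower at an unadjusted p under 0.05, against 9.53% and 7.85% of all peaks, and the median log2 fold change of the family was 0.01. In that fit 8 of the 15 members had a log2 fold change above 0, and the values ran from -1.35 to 2.99. The log2 fold change was 2.99 at 1700030C10Rik and 1.97 at Gm49700. At 1700030C10Rik the 2 WT libraries held 3.86 and 8.08 CPM and the KO library 36.2. The libraries that the study left out held 15.6 there in WT and 30.0 and 17.1 in KO. The lone KO library was assumed to vary like the other groups, and the difference from the other comparisons was not tested.

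The 2 lines did not act alike at every member. At 5730507C01Rik the KO effect in Tconv was lower in the HP1α line than in the HP1γ line by 4.84 on the log2 scale (adjusted p = 0.0141, joint edgeR fit of 33 libraries), as HP1γ KO Tconv rose to 13.4, 20.4 and 20.2 CPM from 0.217, 0.553 and 1.01. At 1700030C10Rik the difference was 1.08 ± 0.54, with an unadjusted p of 0.0537. Over all peaks, 117 (0.164%) differed between the lines by this test, 25 (0.035%) higher and 92 (0.129%) lower for HP1α, and 104 of them were called in HP1γ Tconv on their own. Single libraries of the HP1α line moved this count. Leaving out KO replicate 2 gave 6, WT replicate 3 gave 24 and WT replicate 2 gave 36, whereas the count reached 1216 when KO replicate 3 was dropped and 2005 when WT replicate 1 was. GC offsets gave 236, of which 117 were higher for HP1α.

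Gm74907 is a noncoding gene next to Tfpi, which encodes an inhibitor of coagulation, and its peak at chr2:84328711-84330120 lies 5538 bp from the start site. Its central 300 bases (chr2:84329266-84329565, plus strand), shown to contrast with the promoters above, held 3 CG dinucleotides.

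Gm74907: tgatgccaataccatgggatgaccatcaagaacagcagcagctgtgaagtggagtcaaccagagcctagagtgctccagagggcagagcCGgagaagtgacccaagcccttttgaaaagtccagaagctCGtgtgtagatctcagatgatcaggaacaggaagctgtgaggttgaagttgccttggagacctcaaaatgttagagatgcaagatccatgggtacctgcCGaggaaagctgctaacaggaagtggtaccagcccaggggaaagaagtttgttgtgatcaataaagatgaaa

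The Gm74907 peak stood at 1.33, 2.94 and 6.93 CPM in WT replicates 1 to 3 and at 15.7, 13.6 and 12.6 in KO, a log2 fold change of 2.31 ± 0.38 (95% interval 1.51 to 3.10; adjusted p = 0.24 by edgeR). It passed the threshold in 9 of 24 alternative fits. WT values were again lowest in the deepest and highest in the shallowest library, while the KO libraries lay close together. In naive cells both genotypes were high, 21.9 to 29.9 in WT and 24.3 to 39.8 in KO, so the KO effect in Tconv exceeded that in naive cells by 2.00 on the log2 scale (unadjusted p = 0.000764, not past the adjusted threshold). A neighbouring peak at chr2:84341091-84343500, nearest to Gm74904, followed it, with 0.43, 5.53 and 5.64 in WT and 15.5, 14.1 and 17.3 in KO, a log2 fold change of 2.34 ± 0.62 (edgeR, unadjusted p = 0.00149, adjusted p = 0.995). It was 1.64 without WT replicate 1 and 3.15 without WT replicate 2. That neighbour was described after its values were seen.

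Gm54974, the nearest gene of a peak at chr7:42629141-42630400, stood at 2.47, 3.76 and 2.90 CPM in WT and 7.75, 7.01 and 9.31 in KO, a log2 fold change of 1.47 ± 0.25 (adjusted p = 0.251, edgeR), past the threshold in 4 of 24 alternative fits. The order of the libraries did not follow depth here. In naive cells this was the single peak called, at 1.95, 1.42 and 1.39 in WT and 8.76, 8.93 and 7.63 in KO (log2 fold change 2.39 ± 0.24, adjusted p = 0.000999, edgeR). The peak near Gm35101 on chromosome 10 was higher in KO by 1.39 ± 0.26 and that of Gm56687 on chromosome X by 1.39 ± 0.27 on the log2 scale, with adjusted p of 0.653 and 0.905 (edgeR; past the threshold in 3 of 24 and 2 of 23 alternative fits), and the naive values of both were near 0, at -0.08 and 0.17. The Gm35101 peak matched 41 other tested peaks in sequence, on 17 chromosomes. Of these, 4 were higher and 1 lower in KO at an unadjusted p under 0.05, where 0.856% and 2.22% of all peaks were. The lower one was another peak of Gm35101 (chr10:99444351-99445710), with a log2 fold change of -1.62 (edgeR, unadjusted p = 0.00366).

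Tspan5, which encodes a tetraspanin of the cell surface, held the lower peak with the smallest p, in an exon at chr3:138572831-138574600. It stood at 9.58, 9.70 and 16.3 CPM in WT and 2.72, 3.86 and 4.57 in KO. The log2 fold change was -1.59 ± 0.28 (95% interval -2.19 to -1.001; adjusted p = 0.367, edgeR), and it passed the threshold in 5 of 24 alternative fits. Naive cells of both genotypes were below 1 CPM at this peak, from 0.430 to 0.785.

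A peak at the start site of Gm74286, inside Camk2b, which encodes a calcium-dependent kinase, was close to empty in KO. It lies at chr11:5955741-5957550 and was described after its values were seen, as the eighth peak by unadjusted p. WT replicates 1 to 3 held 554, 94 and 22 reads there, and KO replicates 1 to 3 held 1, 0 and 3. Over the summed depth of 100.3 M (mega) reads in WT and 175 M in KO, the rate was 292 times higher in WT (95% exact interval 113 to 1074, counting error only). The edgeR test gave an unadjusted p of 0.000125 and an adjusted p of 0.995. Over 23 alternative fits the adjusted p ran from 3.34e-06 to 1.0, and 5 of them passed the threshold. KO replicate 3 held 3 of the 4 KO reads, and the fitted log2 fold change of -7.57 became -9.16 without that library and -6.82 without KO replicate 2. Neighbouring peaks within Camk2b were present in KO, and the one over the nearest other start site (chr11:5949451) had a log2 fold change of 0.05 (95% interval -0.25 to 0.36). An intronic peak beside that one had a log2 fold change of -1.45 ± 0.44 (edgeR, unadjusted p = 0.00425).

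At the same peak, naive libraries were low in both genotypes, 0 to 1.61 CPM in WT and 0 to 1.2 in KO. Tconv with Treg held 2.52 and 3.36 in the 2 WT libraries and 0.217 in the 1 KO library that the study kept, and the 3 libraries it left out held 1.56 in WT and 0 and 0.698 in KO. HP1γ Tconv held 2.99 to 6.41 in WT and 2.62 to 7.58 in KO, and the KO effect differed between the HP1α and HP1γ lines (adjusted p = 0.0368, joint edgeR fit). The sequence of this peak matched 16 other tested peaks over at least 200 bases, on 10 chromosomes with it. Of these 16, 2 were higher and 0 lower in KO Tconv at an unadjusted p under 0.05, where 0.856% and 2.22% of all peaks were. Whether strain background at this place differed between the WT and KO mice cannot be told apart from genotype with these files.

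**Figure D3:**
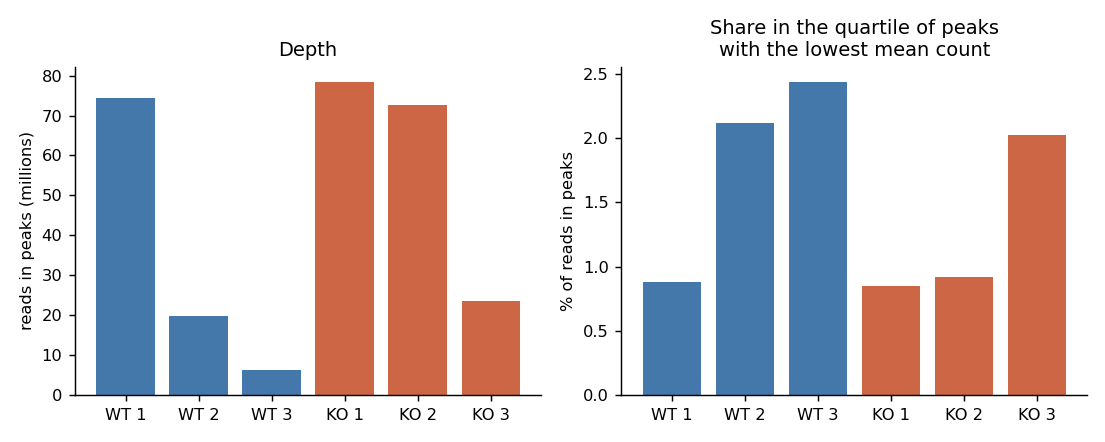
Reads in peaks, in M (left), and the percentage of those reads in the quartile of peaks with the lowest mean count (right) for WT (blue) and KO (orange) Tconv libraries. WT 1, KO 1 and KO 2 are deep and give 0.849% to 0.915% of their reads to these peaks, and WT 2, WT 3 and KO 3 are shallow and give 2.02% to 2.44%.

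Depth divided the 6 libraries in another way than genotype. WT held 74.4, 19.7 and 6.20 M reads in peaks and KO 78.3, 72.7 and 23.6 M, a difference in the means with an exact permutation p of 0.3 (two-sided, smallest possible 0.1). WT replicate 3 had 646 peaks without a read, and the other 5 libraries had 10 to 47. Across peaks, the log2 values of WT replicate 1 correlated with r = 0.986 with KO replicate 1 and with r = 0.957 and 0.899 with WT replicates 2 and 3 (71509 peaks that are not independent). KO replicate 3 correlated best with WT replicate 2, at r = 0.974. Peaks of T cell markers took 0.150% to 0.173% of reads in WT and 0.163% to 0.168% in KO (exact permutation p = 1.0). The shares at markers of B, CD8 T, NK, myeloid, dendritic and erythroid cells and of Treg gave exact permutation p of 0.3 to 1.0 between genotypes.

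The direction of the weak differences went with the abundance of the peak. The median log2 fold change was -0.39 in the quartile of peaks with the lowest mean counts, then -0.17 and -0.04, and 0.12 in the quartile with the highest. Peaks at a start site had a median of 0.06 and those in introns one of -0.15. Between single libraries of like depth this pattern was smaller. The lowest quartile had a median difference of -0.02 between KO 1 and WT 1, 0.06 between KO 2 and WT 1, and -0.03 between KO 3 and WT 2, and the highest quartile had 0.02, 0.01 and 0.04. Between KO 3 and WT 3, the 2 libraries of lowest depth in their groups, these medians were -0.18 and 0.06. Of the 2202 peaks with an unadjusted p under 0.05, 27.8% were higher in KO. That share depended on the setting, being 15.7% without both replicate 3 libraries (567 higher and 3055 lower, against 612 and 1590 in the reported fit), 20.2% with library size alone, 31.4% with DESeq2, 38.4% after thinning, 41.4% with GC offsets, 46.9% with loess offsets on abundance, 48.3% with log2 depth as a covariate and 55.5% with the share of reads at start sites as a covariate. After thinning to the same total of reads in peaks the lowest quartile had a median of -0.62, and with log2 depth as a covariate 0.03.

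**Figure D4:**
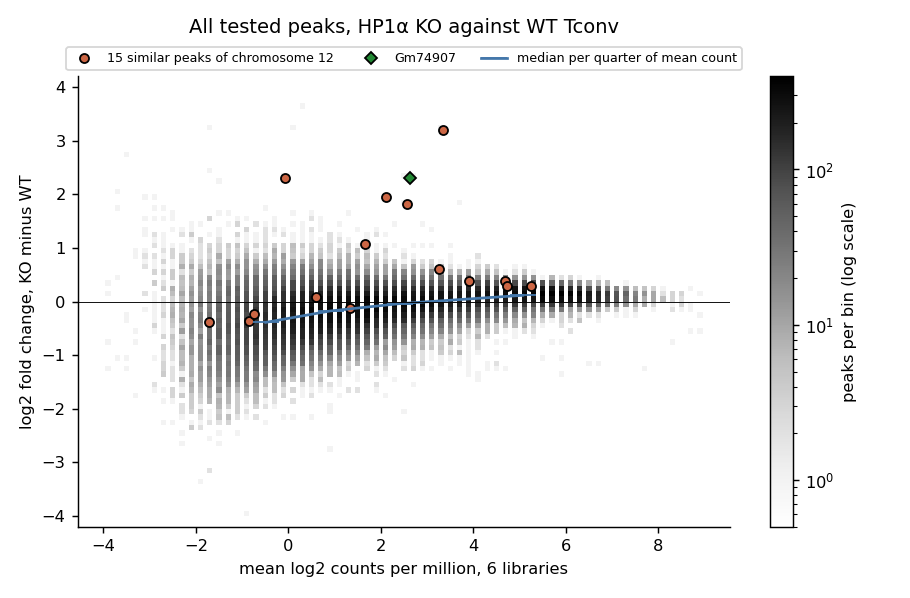
Log2 fold change of KO over WT against mean log2 CPM of the 6 libraries for all peaks, as the number of peaks per bin in grey (log scale, values beyond 4 drawn at 4). The blue line joins the medians of the quartiles by mean count, from -0.39 to 0.12, and the chromosome 12 promoters (orange) and Gm74907 (green) are marked, with 1700030C10Rik at 3.20.

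Genes that define T helper responses were open in both genotypes, and the intervals for most of them were narrow. The peak over the start of Tbx21, which encodes the Th1 master regulator T-bet, stood at 114, 90.3 and 105 CPM in WT and 84.5, 97.3 and 87.8 in KO. Its log2 fold change was -0.14 (95% interval -0.49 to 0.21). That over the start of Ifng, the signature cytokine of Th1 cells, which is shared with Gm49751, differed by -0.11 (-0.57 to 0.35). The interval for Pdcd1, which encodes the inhibitory receptor PD-1, was -0.31 to 0.28, and that for Lag3, also an inhibitory receptor, was -0.40 to 0.33. The start of Tox, a factor of exhausted T cells, differed by 0.18 (-0.21 to 0.57), that of Il2 by 0.26 (-0.17 to 0.69) and that of Il10 by -0.17 (-0.65 to 0.31). For all of these a change of 2-fold or more in either direction lies outside the interval.

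The start of Il17a, the signature cytokine of Th17 cells, was measured less precisely. It stood at 0.967, 3.66 and 4.84 CPM in WT and 8.76, 1.02 and 1.40 in KO, with 1 KO library high and the others low, and its interval ran from -0.89 to 1.91. The peak over the start of Foxp3, the Treg factor, is shared with Ppp1r3f and differed by 0.19 (-0.17 to 0.54).

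Gene lists were described by their counts beside 3.08% of all peaks at an unadjusted p under 0.05 and 0.0014% called. Of all peaks, 0.856% were higher and 2.22% lower at that threshold. Of 97 peaks of Th1 genes, 1 was higher and 4 lower, with a median log2 fold change of 0.01. The 110 peaks of Th17 genes had 0 higher and 2 lower, the 48 of Th2 genes 1 and 0, and the 144 of inhibitory receptor and exhaustion genes 2 and 0, with medians of -0.03, -0.04 and -0.01. T cell receptor signalling genes had 2 higher and 6 lower of 204, and activation genes 3 and 1 of 131. Genes of the naive state and homing had 3 higher and 6 lower of 130, with a median of -0.16 (-0.44 to -0.04 when single libraries were left out, except 0.08 without WT replicate 2). Interferon-stimulated genes had 1 and 3 of 48, cytotoxic genes 0 and 2 of 31, and genes for HP1 proteins and H3K9 methylation 0 and 1 of 63. No peak of any of these lists was called.

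**Figure D5:**
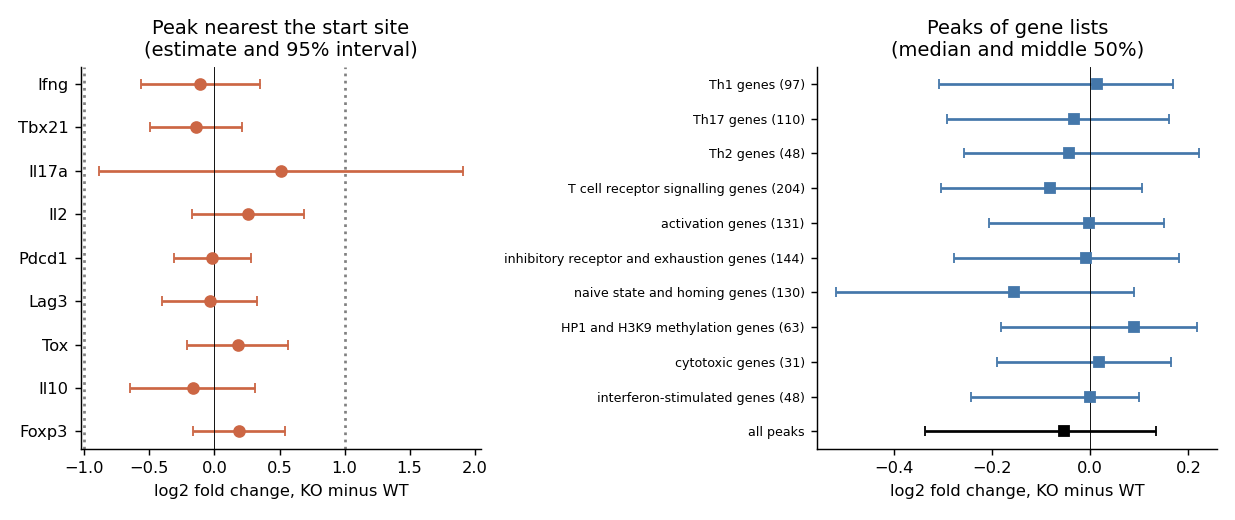
Left, log2 fold change of KO over WT with its 95% interval for the peak nearest the start of 9 T cell genes, with dotted lines at -1 and 1. Right, the median and the middle 50% of the log2 fold changes over the peaks of each list of genes (number of peaks in brackets) and over all peaks. Of these genes, only Il17a has an interval that crosses a dotted line, and the medians of the lists run from -0.16 to 0.09.

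None of the members with the smallest p in each list passed the adjusted threshold. In Th1 genes they were a peak 7004 bp from the start of Ifngr1, which encodes a chain of the interferon gamma receptor, at -0.88 (edgeR, unadjusted p = 0.0148), and an exonic peak of Il18r1, the IL-18 receptor, at 0.45 (edgeR, unadjusted p = 0.0247). An intronic peak of Gzmk, which encodes a granzyme, stood at 2.93, 2.89 and 2.26 CPM in WT and 0.957, 1.29 and 1.18 in KO, so the groups were apart (log2 fold change -1.2 ± 0.43, unadjusted p = 0.0131 by edgeR). At the start of Nr4a1, an early gene of T cell receptor signalling, WT libraries held 50.1 to 55.3 and KO libraries 64.8 to 68.0 CPM (0.39 ± 0.13, unadjusted p = 0.00956). A peak beside Cd4 held 27.3 to 33.7 in WT and 38.9 to 42.8 in KO (0.50 ± 0.15, unadjusted p = 0.00439). An intronic peak of Foxp1, a factor of T cell quiescence, was at -0.76 and an exonic peak of Isg20, an interferon-induced exonuclease, at -0.81, with unadjusted p of 0.00562 and 0.00737. The intronic peak of Entpd1, which encodes CD39, was at 1.08 (edgeR, unadjusted p = 0.0102), its groups overlapped, and it was 0.56 without KO replicate 2 and 1.43 without KO replicate 1. An intronic peak of Dnmt3a, which encodes a DNA methyltransferase, was at -1.62 with overlapping groups, and a peak near Fasl, which encodes Fas ligand, at -1.10 without overlap (edgeR, unadjusted p of 0.0142 and 0.0315).

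Lists used by the study were read as well. Counts are again at an unadjusted p under 0.05, beside 3.08% of all peaks, 0.856% higher and 2.22% lower. Its Th1 signature, compiled from earlier publications, had 1 higher and 13 lower of 336 peaks, 4.17% in all. Its exhaustion signature, compiled likewise, had 5 and 12 of 458, 3.71% in all. Its list of 54 genes for HP1α had 4 and 4 of 241, 3.32% in all, with 1700030C10Rik as the 1 call. This last list was chosen on samples of this series and is no independent evidence.

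Cbx5 itself gave no check of the genotype. The peak at a Cbx5 start site (chr15:103123401-103124490) stood at 13.8, 13.8 and 8.87 CPM in WT and 13.8, 12.9 and 15.1 in KO, a log2 fold change of 0.22 (95% interval -0.18 to 0.62). The peak at the start shared with Hnrnpa1, which encodes a splicing factor, was at 0.01 (-0.33 to 0.36). A peak between them, nearest to Gm62984, was lower in KO at -0.95. It ran from -1.29 to -0.56 when single libraries were left out and was not called. A count over a start site does not test a deletion elsewhere in the gene. Within 10 Mb of Cbx5, 13 of 671 peaks were higher and 16 lower at an unadjusted p under 0.05, 4.32% in all, and 0 were called. Over all peaks the share was 3.08%, with 0.856% higher and 2.22% lower.

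The precision of the estimates went with the mean count of a peak. The 95% interval of the log2 fold change lay within -1 and 1 at 56.5% of all peaks, at 98.5% in the quartile with the highest mean counts and at 3.72% in the quartile with the lowest, where the median count per library was 28. A change of 2-fold or more could therefore not be excluded at most peaks of low count.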

How the data were processed

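The authors deposited a table of raw counts per consensus ATAC-seq peak, whole numbers with no normalization, and the positions of the peaks. The study trimmed reads with Trim Galore (0.6.7 per the submitters' notes), aligned them to GRCm39 with BWA, filtered on mapping quality and duplicates, called peaks in each sample with HMMRATAC, merged them, and counted with featureCounts (2.0.3), so neighbouring peaks can share a read. All 36 columns matched a sample, and 3 intervals of 71512 had no width and were left out.

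The comparison was fitted with edgeR 4.0.16 (R 4.3.3) on the 15 libraries of the HP1a line that the study kept, in 6 groups sharing one estimate of spread, with TMM scaling, filterByExpr and the quasi-likelihood F test in the form used by edgeR 3, two-sided, with Benjamini-Hochberg adjustment over all peaks. Called peaks had an adjusted p below 0.05 together with a log2 fold change above 1 or below -1. Tconv with Treg had 2 WT and 1 KO libraries in this fit. HP1γ was fitted on its 18 libraries, and the test between lines used 33 libraries together. CPM are raw counts over the library's reads in peaks, and log2 values took 2 as the prior count. Biological variation between libraries had a coefficient of 26.6%. Intervals are 95% t intervals of the fit. Peaks were assigned to the nearest start site in GENCODE vM39 and read from the GRCm39 genome, and similar peaks were found with BLAST 2.17.0.

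Named peaks were those of Cbx5, the called peak, the 6 next by p, the 2 leading genes of each list, the start sites of 9 T cell genes (that of another gene in the rule is not reported here), and peaks called without WT replicate 1, WT replicate 3 or KO replicate 3, each of which raised the count to 2. Members and lists were chosen with earlier results of these data known. Alternatives covered scaling, filters, covariates, tools and the leaving out of each library. Depth ran from 6.20 to 78.3 M reads in peaks, and intervals on counts cover counting error only.

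Replicate numbers were checked for pairing: the deviations of WT and KO libraries with the same number correlated at 0.56, -0.23 and 0.41. Libraries of like depth with different numbers also correlated, KO 3 with WT 2 at 0.47 and KO 2 with WT 1 at 0.43. The check therefore cannot tell whether the numbers mark pairs, and they were not taken as pairs.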

Additional observations from a re-analysis of the deposited data

Results flagged for a closer look

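Groups of 3 libraries are too few for a test of single outlying values, and each library was left out in turn instead. Several peaks were noted because the KO effect in Tconv differed between the HP1α and the HP1γ line by the edgeR test of the difference over 33 libraries. The difference, HP1α minus HP1γ on the log2 scale, was 2.36 at Gm74907 (adjusted p = 0.0488), where HP1α KO Tconv were higher and HP1γ KO Tconv differed by -0.04. It was -7.57 at Gm74286, where 1 to 3 reads or none remained in HP1α KO Tconv. It was -3.18 at Gm61383, -2.97 at Gm60076 and -3.16 at Gm47957, all noncoding start sites at which HP1α KO libraries lay below WT and HP1γ KO values lay above (log2 1.13, 1.27 and 1.2). It was -4.84 at 5730507C01Rik, a member of the chromosome 12 promoter family that rose in HP1γ KO Tconv. The number of peaks that differed by this test changed with single libraries, and the cause was not tested.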

How the results depend on the processing

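The Tconv count of 1 called peak depended on the setting. It was 0 with all 18 HP1a libraries, library size alone, loess offsets on abundance, a mean count of at least 50 or thinning to the smallest library, and 2 with GC offsets, log2 depth as a covariate or an adjusted p under 0.1. It was 4 with limma voom and quality weights, 5 in the joint fit and 12 with DESeq2 (8 higher). Leaving out single libraries gave 0 to 2, with 10802 peaks at an unadjusted p under 0.05 without WT replicate 1 and 783 without KO replicate 2. Without a filter beyond 1 read, on autosomes, with 6 libraries only and without a fold threshold it stayed 1, although with 6 libraries the call was Gm74286. Chosen after seeing the data, the edgeR 4 form of the test gave 15 (6 higher). Leaving out both replicate 3 libraries, chosen likewise, gave 2, and the share of reads at start sites as a covariate gave 0. The edgeR 4 form gave too many small p-values on simulated counts without any change. That simulation held no trend with abundance, so it does not show how the test behaves on these libraries. With the replicate block, which takes equal numbers as pairs, the Tconv count was 5, and with the block and GC offsets 23. Whether equal numbers are pairs could not be told. Library size alone moved the median of all peaks to -0.12 and GC offsets moved it to 0.07.

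The difference between Tconv and naive cells had 0 calls (761 at an unadjusted p under 0.05 in edgeR), 1 with GC offsets and 1 with DESeq2, and 0 when single libraries were left out. The difference between HP1α and HP1γ had 117 calls, 236 with GC offsets, 795 with DESeq2, 2917 with the replicate block, 66 with depth as a covariate, 743 with that edgeR 4 form and 6 to 2005 when single libraries were left out. The cause of these moves was not tested. Of 2802 values of named peaks under alternatives, 52 passed the threshold where the reported fit did not, 11 lost it, all of 1700030C10Rik, and 0 turned sign with a call. Intervals were wide at peaks with low mean counts.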
